A study of Homo sapiens with 5 samples.

Results

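The regions described here are stretches of the genome at which the retinoblastoma protein (Rb) gave a peak in every Rb library of the series, with and without a CDK4/6 inhibitor. All Rb peaks that overlapped by 1 bp or more were joined across the 4 libraries, and a merged region was kept on chromosomes 1 to 22 and X if it held a peak from each library and met no peak of the IgG2a control. Of 15036 merged regions, 1105 had a peak in all 4 libraries and 1067 were kept. The 38 removed regions all lay outside chromosomes 1 to 22 and X, and 33 of them also met an IgG2a peak. None of the regions on the kept chromosomes overlapped an IgG2a peak. Since the regions were chosen by the presence of peaks, their ranks, folds, widths and coverage are given as descriptions, without tests.

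Rb was mapped by CUT&RUN, in which an antibody guides a nuclease to a chromatin protein in unfixed cells and the released DNA is sequenced. The cells were parental ZR-75-1, a long-established line from a hormone receptor-positive breast cancer, exposed for 4 days to the CDK4/6 inhibitor abemaciclib at 500 nM or to an equal volume of DMSO. Each treatment had 2 Rb libraries from independent cultures. The single IgG2a library used here came from DMSO-treated cells, and an IgG2a library with abemaciclib was not analysed here. The smallest two-sided p of a permutation test of 2 libraries against 2 is 0.333, and treatments are compared by the size of a difference beside the spread between replicates. Peak lists hold no expression values, and the identity of the cells was not checked here.

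Rb is a pocket protein that has no DNA-binding domain of its own. It is held at promoters mainly by E2F-DP heterodimers, whose target genes drive entry into S phase, and its phosphorylation by cyclin D-CDK4/6 and then by cyclin E-CDK2 loosens that hold. The related DREAM complex, built on the pocket proteins p107 and p130, represses cell cycle genes through E2F sites and through the cell cycle genes homology region (CHR). Many CHR promoters also hold CCAAT boxes, the sites of the trimeric activator NF-Y.

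The sequence under some of the best ranked regions is shown first, because the shared regions are compared by these elements further on. Each window of 80 bases is from the plus strand of the reference genome GRCh38, 5′ to 3′. Capitals mark matches on either strand to the E2F, CHR or NF-Y pattern. A match to E2F is either TTCCCGC, the variant that reads TTCGCGC, the variant that reads TTGCCGC, or the variant that reads TTGGCGC. A match to CHR is TTTGAA or else the variant TTCGAA, and a match to NF-Y is CCAAT. The windows were picked because they hold a match outside annotated untranslated regions (UTRs), so that the presence of a match is not a result. The 5 windows from the best ranked regions overall are from LPCAT3 (chr12:7018714-7018793), the divergent promoter of DTL and INTS7 (chr1:212035305-212035384), the non-coding gene ENSG00000289222 (chr16:2905608-2905687), FANCG (chr9:35079983-35080062) and H2AZ2 (chr7:44848417-44848496).
LPCAT3: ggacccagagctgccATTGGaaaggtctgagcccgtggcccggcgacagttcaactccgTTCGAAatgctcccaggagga
DTL/INTS7: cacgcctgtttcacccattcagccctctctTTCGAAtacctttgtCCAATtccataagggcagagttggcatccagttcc
ENSG00000289222: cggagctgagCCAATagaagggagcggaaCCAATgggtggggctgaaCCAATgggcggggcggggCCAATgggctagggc
FANCG: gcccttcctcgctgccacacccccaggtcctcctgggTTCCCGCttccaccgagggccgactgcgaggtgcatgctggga
H2AZ2: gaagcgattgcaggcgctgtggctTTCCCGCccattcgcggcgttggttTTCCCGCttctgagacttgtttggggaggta

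A further 4 windows come from the best ranked regions with no gene of the cell cycle lists at a promoter. They lie at SLF2 (chr10:100913182-100913261), DDX11 (chr12:31074097-31074176), the divergent promoter of CENPX and LRRC45 (chr17:82023216-82023295) and the joint promoter region of FAM117A and KAT7 (chr17:49789045-49789124).
SLF2: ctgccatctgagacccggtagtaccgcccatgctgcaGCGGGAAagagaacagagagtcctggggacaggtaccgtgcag
DDX11: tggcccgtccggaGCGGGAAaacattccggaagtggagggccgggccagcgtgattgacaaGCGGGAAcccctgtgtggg
CENPX/LRRC45: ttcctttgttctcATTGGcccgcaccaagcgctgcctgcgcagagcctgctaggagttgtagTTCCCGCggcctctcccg
FAM117A/KAT7: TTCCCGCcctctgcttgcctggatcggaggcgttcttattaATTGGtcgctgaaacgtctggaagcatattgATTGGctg

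The shared regions were nearly the whole of what both DMSO libraries had in common. On the kept chromosomes and without an IgG2a peak, 1068 regions had a peak in both DMSO libraries, and 1067 of these also had a peak in both abemaciclib libraries. The remaining region had none in either. In the other direction, both abemaciclib libraries had a peak at 11007 regions, of which 1337 had a peak in 1 DMSO library and 8603 in neither (gained regions). The number of shared regions was set by DMSO replicate 1, which had the shortest list. Without that library it would be 2156, whereas it would be 1315 without DMSO replicate 2 and 1068 and 1067 without abemaciclib replicates 1 and 2.

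Within each list, peaks were ranked by the −log10 of the Poisson p-value that the authors' peak caller gave them, with rank 1 for the largest. The lists held 1438 and 2582 peaks for the DMSO replicates, against 13960 and 12234 for those with abemaciclib. Peaks in shared regions made up 75.9% and 44.2% of the DMSO lists and 7.72% and 8.84% of the abemaciclib lists. They headed every list once other chromosomes and IgG2a peaks were set aside. The shared regions supplied all 100 of the best 100 peaks in each abemaciclib library and 77 and 78 of the best 100 in DMSO, where the other 23 and 22 lay outside the kept chromosomes or at IgG2a peaks. Their median rank was 609 and 695 in DMSO and 604 and 599 in abemaciclib. The number of shared regions largely sets these ranks, so their likeness is no result. As list positions the medians were 42.4% and 26.9% in DMSO, against 4.33% and 4.90% in abemaciclib.

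The shared regions reached closer to the end of the DMSO lists than of the abemaciclib lists. The lengths of the lists largely set this contrast, since shared peaks fill 75.9% and 44.2% of the short DMSO lists. It is therefore no result about the treatment. In the DMSO lists the shared regions reached down to ranks 1436 and 2581, close to the last peak of either list. In the abemaciclib lists the lowest were at 5477 and 7603. As a position in the list, in which 0% is the strongest peak, the middle 50% of shared regions lay between 21.4% and 67.2% in DMSO replicate 1 and between 12.4% and 48.1% in DMSO replicate 2. With abemaciclib the same regions lay between 2.00% and 8.22% in replicate 1 and between 2.28% and 9.79% in replicate 2. The plot of shared peaks along each list shows this as a steep fall in the abemaciclib libraries. There they made up 84.8% and 88.9% of the first 5% of peaks, 39.3% and 43.8% of the next 5%, and 3.01% and 5.88% between 20% and 25%.

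**Figure D1:**
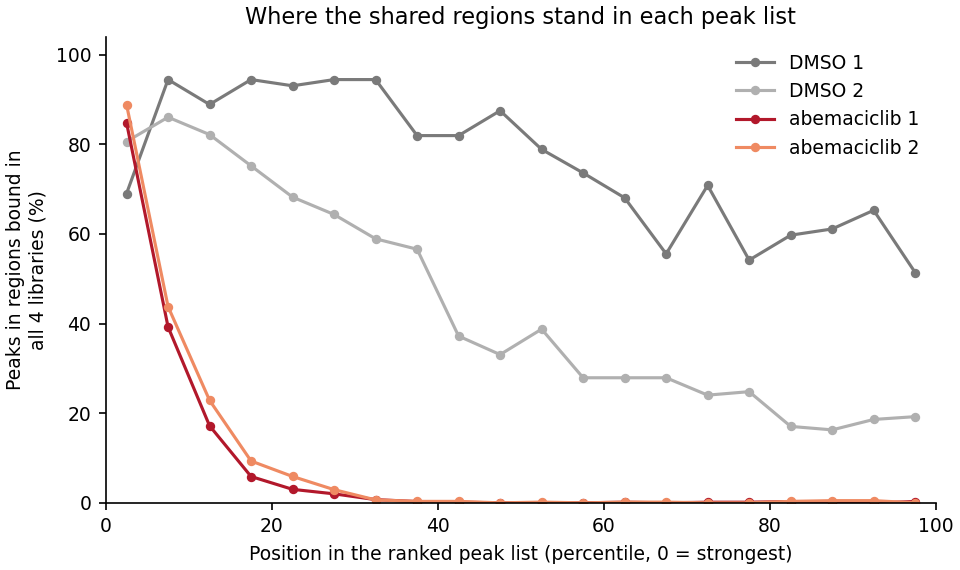
Share of peaks that lie in regions bound in all 4 libraries (y axis, %), in steps of 5% along each Rb peak list from the strongest peak (x axis, percentile by −log10 p); each line is 1 library. In both abemaciclib libraries the share falls from over 80% in the first step to under 10% by the fourth, whereas in DMSO replicate 1 it is 51.4% in the last step.

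The order of the regions was reproduced closely between the abemaciclib libraries and less so between the DMSO libraries. Over the 1067 regions, Spearman's rho of the ranks was 0.941 between the abemaciclib libraries, 0.614 between the DMSO libraries and 0.580 to 0.651 between a DMSO and an abemaciclib library. The libraries share cells, antibody and sequence composition, and these values are descriptions. Ranked among the shared regions alone, 46 were in the best 100 of all 4 libraries.

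Of the 10 best ranked regions by the mean of their 4 list positions, 4 were at a gene of the cell cycle lists, beside 11.4% of all shared regions. Positions spread more widely in the DMSO lists, so this mean follows the DMSO order more closely (rho 0.885 and 0.879 with the DMSO ranks, 0.757 and 0.759 with those of abemaciclib). By mean rank among the shared regions, which weights the 4 libraries alike, DTL/INTS7 came first, 7 of the first 10 regions were the same, and 2 in place of 4 of the first 10 were at a gene of the cell cycle lists. LPCAT3, which encodes an acyltransferase that remodels membrane phospholipids, had the region with the best mean position (chr12:7017792-7019226, summit in an intron). In DMSO it ranked 9 in both replicates, and in abemaciclib 6 in both. Pairs of values that follow are for replicates 1 and 2 in this order. The next was the divergent promoter of DTL, the substrate receptor that directs CDT1 to degradation, and INTS7, a subunit of the Integrator complex (chr1:212034804-212036438, summit in a UTR). It ranked 7 and 15 in DMSO and 1 and 1 in abemaciclib. The region at ENSG00000289222 (chr16:2904072-2906271, intergenic summit, 6.33 kb from the nearest coding start, that of FLYWCH1) ranked 12 and 7 in DMSO and 5 and 7 in abemaciclib. CTDSPL2, a phosphatase of the small CTD phosphatase family, followed (chr15:44426603-44428570). Its ranks were 16 and 27 in DMSO and 2 and 2 in abemaciclib. All 4 of these regions stayed within the first 27 peaks of every list.

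The rest of the first 10 included genome maintenance genes. FANCG, a subunit of the Fanconi anaemia core complex (chr9:35079104-35080400), ranked 18 and 13 in DMSO and 41 and 46 in abemaciclib. H2AZ2, which encodes a variant of histone H2A.Z (chr7:44847395-44849070), ranked 11 and 31, then 40 and 38. CDC6, a loader of the replicative helicase, ranked 20 and 16, then 55 and 69. Among the shared regions alone, these 3 ranked between 3 and 18 in DMSO and between 38 and 69 in abemaciclib, but they were picked by an order that follows DMSO more closely. SLF2, which helps to bring the SMC5/6 complex to DNA lesions, ranked 28 and 18, then 14 and 15. The promoter between CENPX, a histone-fold protein of the kinetochore, and LRRC45, a centrosome linker protein, ranked 29 and 20, then 10 and 14. DDX11, a DNA helicase of sister chromatid cohesion, ranked 27 and 22, then 7 and 11. A near-identical pseudogene copy, DDX12P, was itself a shared region with ranks of 431 and 178, then 64 and 45. How reads from such copies were placed is not stated in the sources used here, so the values of both are uncertain.

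Other regions without a gene of the cell cycle lists among the best ranked were at KPNB1, which encodes importin β1, and in the joint promoter region of FTSJ3, a ribosomal RNA processing factor, and PSMC5, a proteasome ATPase. The list goes on with the protease gene FAM111B, RELL1, the ciliary trafficking gene TULP3, the pair of HIRIP3 and INO80E, the nuclear export factor gene CSE1L, ACTMAP with SNRPA, FIZ1 with ZNF524, CARHSP1 and ALKBH6. Across these 11 regions the worst rank in any library was 155, for ALKBH6 in abemaciclib replicate 2.

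The number of fragments over each summit could be read back from the lists. For each peak, the deposited fold and p-value fix a whole number of fragments at the summit and a local background, and both were solved for 100% of the peaks at a relative tolerance of 0.01%. Summit coverage is that number of fragments divided by the library's genome mean. Shared regions had a median of 12 and 14 fragments at the summit with DMSO (replicates 1 and 2), and of 102 and 78 with abemaciclib. These numbers are not scaled to the library, and the genome means used for scaling were 0.649 and 0.677 fragments with DMSO and 0.656 and 0.521 with abemaciclib.

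Summit coverage was higher in both abemaciclib libraries than in both DMSO libraries at all 1067 shared regions. The median ratio of the treatment means was 7.31, with the middle 50% of regions between 5.96 and 8.83. Medians for the 4 pairs of an abemaciclib and a DMSO library were 6.72 to 7.92, beside 1.15 for DMSO replicate 2 over replicate 1 and 0.962 for abemaciclib replicate 2 over replicate 1. The rise was therefore larger than the difference between replicates. The regions were required to have a DMSO peak, and no test was made. The genome mean counts fragment length as well as number, and the part of length in the ratio was not tested. Only if all libraries had been called against IgG controls of equal depth, which the sources used here do not state, would the steps of the local background give the number of fragments, with a median ratio per fragment of 9.78.

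Of the 1067 regions, 25 had a ratio under 4 and 36 had a ratio over 12. The regions with the largest ratios included those at CEP97, a centriole protein that restrains ciliogenesis, C10orf143, EVI5L and SMC3, a core cohesin subunit. CEP97 had 7 and 8 fragments at the summit in DMSO and 146 and 121 in abemaciclib, a ratio of 20.1. At SMC3 there were 9 and 9, then 128 and 103, a ratio of 14.5. The smallest ratios were at AADAT, a mitochondrial aminotransferase gene, CASP8AP2, SNRPE, UBE2W and GLUL. AADAT had 8 and 12 fragments in DMSO and 27 and 12 in abemaciclib, a ratio of 2.14. Its counts overlapped between treatments, and only after division by the genome mean were both abemaciclib values the higher.

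**Figure D2:**
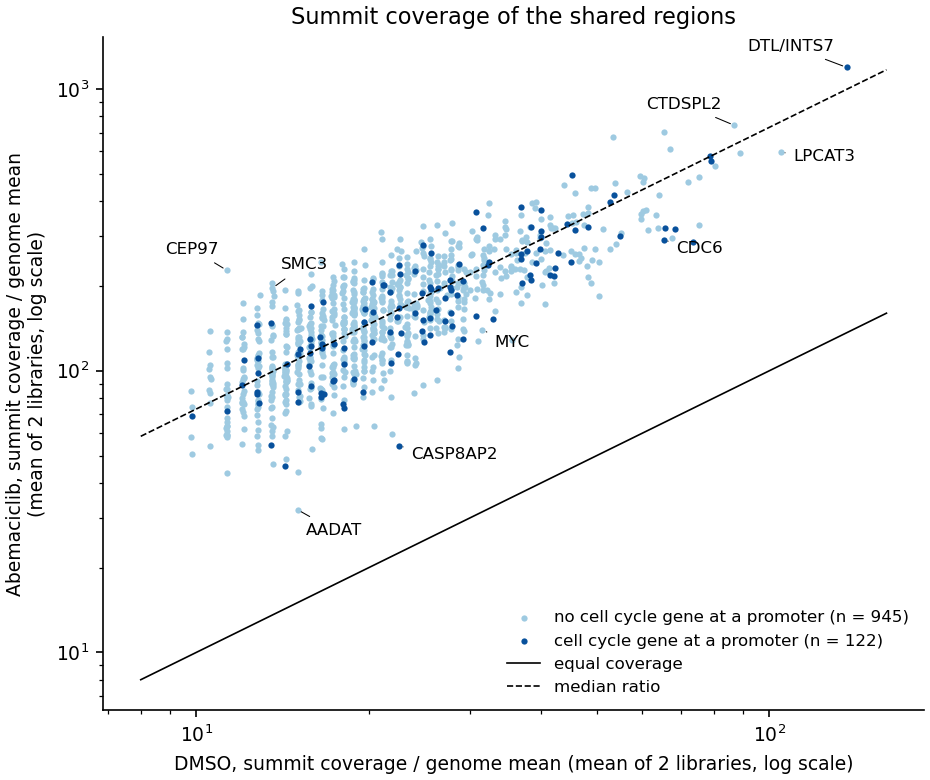
Summit coverage over the genome mean at the 1067 shared regions, DMSO (x axis) against abemaciclib (y axis), both as the mean of 2 libraries on a log scale; dark points have a gene of the cell cycle lists at a promoter. All points lie above the solid line of equal coverage, around the dashed line of the median ratio, 7.31, and the named regions lie at the edges of the cloud or are discussed in the text.

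Some regions nevertheless changed place relative to the other shared regions. Ranked among the 1067 regions alone, 287 ranked better in both abemaciclib libraries than in both DMSO libraries. Another 322 ranked worse in both, and 458 overlapped. By Spearman's rho, the order differed between treatments (0.580 to 0.651) about as much as between the DMSO replicates (0.614). It differed less between the abemaciclib replicates (0.941). Whether the counts exceed those from replicate spread alone was not tested. Positions in the whole lists are no guide here, because the abemaciclib lists are longer. By list position, 1035 regions stood higher in both abemaciclib libraries and 0 in both DMSO libraries, with CEP97, ENDOV, NUP98/PGAP2, SAE1 and LINC03026 at the head.

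CEP97 moved furthest up among the shared regions, from ranks of 924.5 and 1065 in DMSO to 170 and 136.5 in abemaciclib within this set, with tied peaks given their mean rank. Others that moved far up were EVI5L, PCSK4/REEP6, EFCAB2 and a region in the promoter window of a RAD9A transcript. RAD9A encodes a subunit of the 9-1-1 checkpoint clamp. The summit of that region lay in a non-coding exon. The nearest start of a canonical coding transcript was that of SSH3, 13.9 kb away. CASP8AP2 (chr6:89829216-89830276), whose product FLASH is needed for histone pre-mRNA processing, moved furthest in the other direction. Within the set it ranked 290.5 and 248.5 in DMSO and 1041.5 and 1055 in abemaciclib, with 13 and 17 fragments in DMSO and 38 and 26 in abemaciclib. After it came MGRN1, USF3, SCAI, EIF4B, the FBXL8/TRADD promoter, MROH6, an intronic region near TIMM17B, PPIL1 and STAT2, the signal transducer of type I interferon. At STAT2 these ranks were 546 and 212.5 in DMSO and 975 and 822.5 in abemaciclib, with 10 and 18 fragments, then 51 and 50. All of the regions that moved down still had more coverage with abemaciclib than with DMSO. The DMSO counts behind these moves are small, and the ranks of the DMSO libraries agreed less well than those of the abemaciclib libraries.

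Nearly all shared regions were at promoters, taken as 2000 bp upstream to 500 bp downstream of a GENCODE transcript start. This held for 1041 of 1067 regions (97.6%, Wilson 95% interval 96.5% to 98.3%), beside 96.9% of the regions that lacked a peak in 1 DMSO library only and 91.0% of gained regions (90.3% to 91.5%). Such intervals cover counting error only. The promoter was that of a protein-coding gene in 996 regions and of non-coding genes alone in 45. At the 996, the summit of abemaciclib replicate 1 lay a median of 57 bp upstream of the nearest coding start, and 70.3% of summits lay within 250 bp of one. The summits of the 4 libraries spanned a median of 123 bp. The DMSO summits were a median of 65 bp apart and the abemaciclib summits 33 bp apart. Merged regions had a median width of 1430 bp. The median peak in them was 298 and 376 bp wide in DMSO and 1372 and 1309 bp wide in abemaciclib.

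Some shared regions held the starts of a pair of genes. Among promoter regions, 162 (15.6%, 13.5% to 17.9%) held the starts of a head-to-head pair of coding genes at most 1000 bp apart, against 5.18% of gained promoter regions, a 3.01-fold share (Fisher's exact test, two-sided, adjusted p = 1.67e-28). Regions are not replicates, and this test describes these region sets. Shared regions were wider, with a median of 1430 bp against 860 bp for gained regions. Counting only starts within a fixed 1000 bp around the summit gave 12.7% against 5.01% (exact test, adjusted p = 1.36e-17). Within regions whose abemaciclib replicate 1 peak was in the first 20% of its list, the fixed window gave 12.9% against 7.71% (exact test, adjusted p = 0.00449). With the same number of peaks taken from each list, the difference did not pass, at 15.9% of 705 shared and 11.9% of 177 gained promoter regions (exact test, adjusted p = 0.553). Pairs of this kind among the best ranked regions were DTL and INTS7, CENPX and LRRC45, and HIRIP3 and INO80E.

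In all, 1297 of 19962 protein-coding genes (6.5%) had a shared region at a promoter, and 52.5% had a promoter region in both abemaciclib libraries. Gene lists are read against these backgrounds, with no test. The 7 cell cycle lists together held 122 such genes among 440 (27.7%). The DNA replication list gave 31 of 66 genes, the G1/S list 16 of 47, DNA repair 31 of 97 and mitosis 26 of 99. Nucleotide supply gave 5 of 37, with a Wilson interval (5.91% to 28.0%) that includes the 6.5%. For 5 of the 7 lists the whole interval lay above 6.5%, and for 1 it lay below. The replication-dependent histone genes gave 0 of 69, for which the upper bound of the Wilson interval is 5.27%, although 39.1% of them had a promoter region in both abemaciclib libraries. Without DMSO replicate 2 the count was 4, so the 0 rests on that library. Of the genes that supply and handle histones, 13 of 25 had a shared region.

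Genes of these 7 lists were a small part of the whole. In all, 122 of the 1067 regions (11.4%) had a gene of these lists at a promoter, and 945 did not. The lists do not hold every gene with a role in division, and CENPX, DDX11, SMC3, PLK4 and the augmin genes are counted outside them. Regions with a gene of the lists were somewhat better placed, with median ranks of 405.5 and 417 in DMSO and 500.5 and 488.5 in abemaciclib, against 630 and 723, then 617 and 611, for the others. They made up 25 of the best 100 regions and 6 of the last 100. The median coverage ratio was 6.85 with such a gene and 7.39 without.

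The 28 lists on other functions held 224 genes with a shared region among 2242 (10.0%). Genes in no list held 951 among 17280 (5.50%). More of the listed genes also had a promoter region in both abemaciclib libraries, 74.3% against 48.8%. Among genes with such a region, 13.4% of those in the 28 lists had a shared region. The share was 11.3% for genes in no list and 12.4% for all coding genes. For 10 of the 28 lists, the whole Wilson interval lay above the 6.5% of all coding genes, and for none did it lie below. This count is no test. The lists were written with earlier results of these data known, and the intervals are not corrected for their number. The 6.5% also counts genes without a promoter region in both abemaciclib libraries. The gene counts depend on DMSO replicate 1, without which 2491 coding genes would have a shared region. The plot of gene lists orders them by their share. Genes that neighbour each other can share a region, so the intervals are too narrow where this happens, as for SLBP and TACC3, MED17 and TAF1D, or CBX5 and HNRNPA1.

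**Figure D3:**
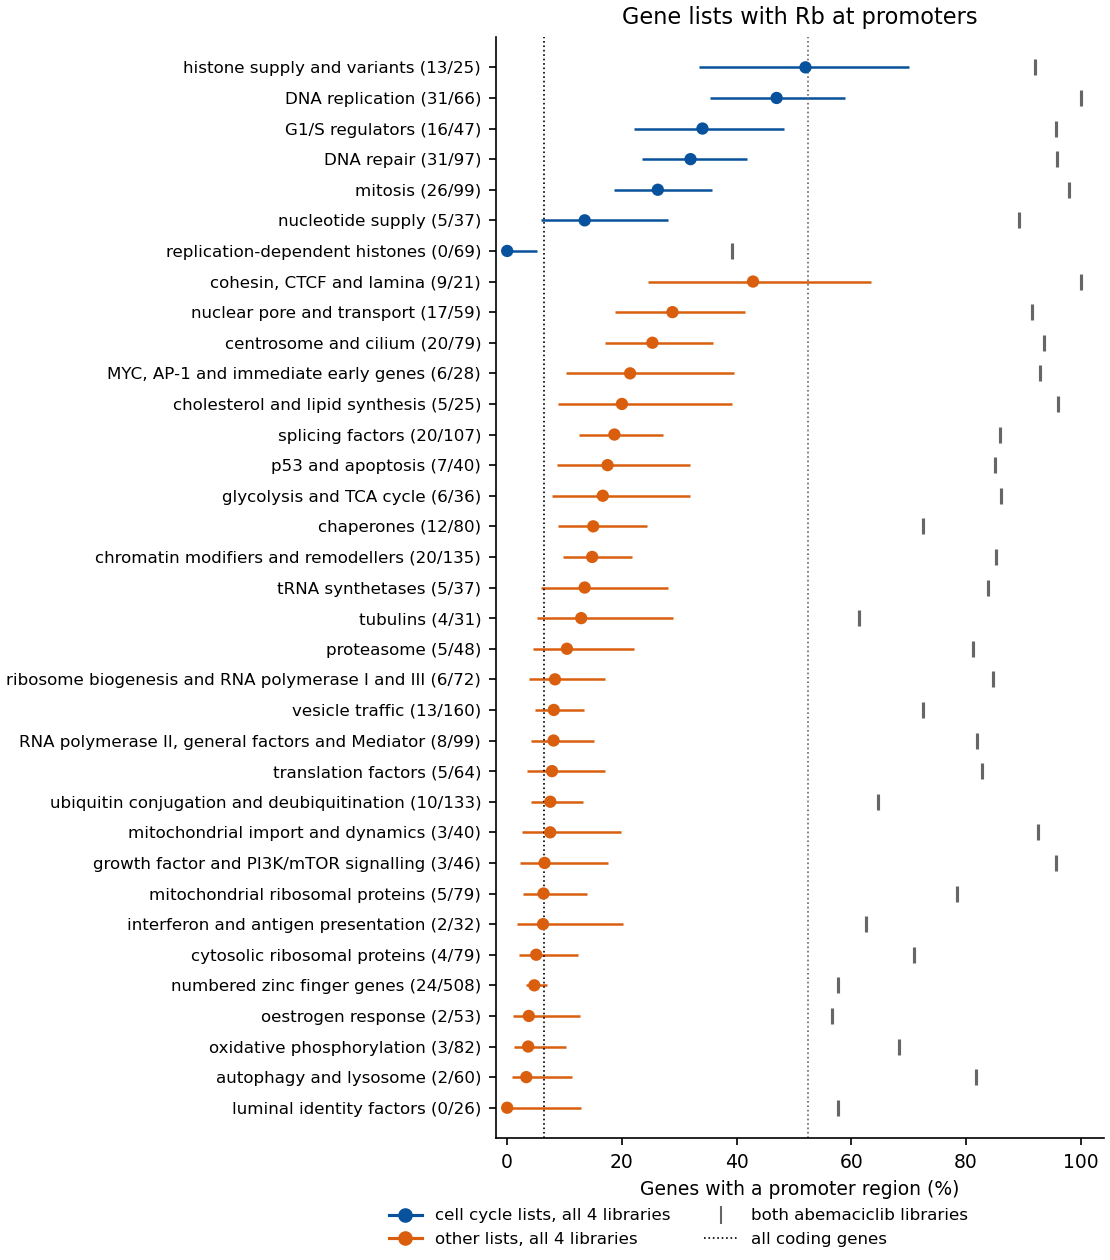
Share of the genes of each list with a promoter region bound in all 4 libraries (x axis, %; points with Wilson 95% intervals, counts in brackets) or in both abemaciclib libraries (vertical ticks); dotted lines mark all coding genes, 6.5% and 52.5%. Cohesin, CTCF and lamina genes (42.9%) head the other lists, and luminal identity factors (0 of 26) end them.

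Chromosome architecture stood highest outside the cell cycle lists. Of 21 genes for cohesin, CTCF and the nuclear lamina, 9 had a shared region (42.9%, 24.5% to 63.5%), and all 21 had a promoter region in both abemaciclib libraries. These were STAG1, SMC1A and SMC3 of the cohesin ring, the loader subunit MAU2, the insulator protein CTCF, and the lamina genes LMNB1, LMNA, TMPO and BANF1. STAG1 had 22 and 25 summit fragments in DMSO and 157 and 118 in abemaciclib. For CTCF there were 19 and 26, then 147 and 126. LMNB1, which encodes lamin B1, had 19 and 16, then 102 and 92. STAG1 was the best ranked of the 9, at 93 and 115 in DMSO and 137 and 152 in abemaciclib. With equal list sizes the count was 5, and at a −log10 q of at least 5 it was 4. The count over all coding genes was then 882 and 646.

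Genes for traffic through the nuclear pore gave 17 of 59 (28.8%, 18.8% to 41.4%). They included both parts of the transport cycle of importin α, with KPNB1 for import and CSE1L for the return to the cytoplasm. KPNB1 ranked 26 and 33 in DMSO and 26 and 44 in abemaciclib. CSE1L ranked 52 and 56, then 31 and 29. Pore subunits came from several parts of the channel, namely NUP85, NUP107 and NUP160 of the outer Y complex, NUP54, NUP58 and NUP62 of the central channel, the cytoplasmic NUP214, NUP98, the membrane subunit NUP210, and TPR of the nuclear basket. NUP54 had 21 and 17 fragments in DMSO and 177 and 146 in abemaciclib, a ratio of 9.57. NUP85 had 23 and 39, then 166 and 138, a ratio of 5.57. The rest were the import and export receptors KPNA3, IPO8, IPO9 and TNPO3 and the Ran cofactor RANBP1.

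Centrosome and cilium genes gave 20 of 79 (25.3%, 17.03% to 35.9%). The augmin genes HAUS1, HAUS2, HAUS3 and HAUS8, whose complex nucleates microtubule branches in the spindle, were among them. So were CEP192, which recruits pericentriolar material, PCNT, the centriole duplication kinase PLK4, CCP110 and its partner CEP97, and the intraflagellar transport genes IFT25, IFT27, IFT80 and IFT140. HAUS2 ranked 107 and 78 in DMSO and 106 and 172 in abemaciclib. HAUS1 varied far more between the DMSO replicates, with ranks of 1101 and 127 and 8 and 25 fragments, while its abemaciclib ranks were 62 and 103. For HAUS1 the rank in DMSO therefore rests on which library is read.

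Splicing factors gave 20 of 107 (18.7%, 12.4% to 27.1%), and 43 without DMSO replicate 1. SNRPA, which encodes a protein of the U1 particle, ranked 45 and 52 in DMSO and 90 and 60 in abemaciclib. HNRNPUL1 ranked 33 and 99, then 37 and 32, and the splicing activator gene SRSF1 ranked 35 and 120, then 38 and 26. The promoter between HNRNPA1, an RNA-binding protein that often represses splice sites, and CBX5, the heterochromatin protein HP1α, rose from 24 and 28 fragments in DMSO to 270 and 199 in abemaciclib, a ratio of 10.1. SNRPE, of the Sm ring, was at the other end, with 16 and 13 fragments in DMSO and 39 and 31 in abemaciclib.

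Chromatin modifiers and remodellers gave 20 of 135 (14.8%, 9.80% to 21.8%), and 35 without DMSO replicate 1. The histone acetyltransferase gene KAT7 led them at ranks of 23 and 42 in DMSO and 17 and 23 in abemaciclib. SIN3A, a corepressor scaffold that binds histone deacetylases, ranked 72 and 82, then 153 and 141. EZH2 and SUZ12 of Polycomb repressive complex 2, the maintenance methyltransferase gene DNMT1 and the remodeller gene HELLS also had shared regions. EZH2 had 20 and 17 fragments in DMSO and 149 and 99 in abemaciclib. HELLS stood low in the ranking, at 695 and 2269, then 1691 and 2008. Histone supply genes beyond H2AZ2 included DNAJC9, a chaperone of H3-H4, SLBP, which binds the histone mRNA stem-loop, ASF1B, and NPAT, the activator of histone gene transcription. DNAJC9 ranked 60 and 61 in DMSO and 67 and 42 in abemaciclib.

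Smaller lists concerned growth and metabolism. MYC and its relatives, AP-1 and immediate early genes gave 6 of 28 (21.4%, 10.2% to 39.5%), namely ATF2, MYC, EGR1, MXD3, MXD4 and JUNB. MYC itself had 17 and 25 fragments in DMSO and 87 and 76 in abemaciclib, a ratio of 4.41, and ranked 258 and 164, then 878 and 644. MXD3 and MXD4, which encode antagonists that compete with MYC for MAX, differed widely between the DMSO libraries, with ranks of 1012 and 175 for MXD3 and of 1413 and 172 for MXD4. Cholesterol and lipid synthesis gave 5 of 25 genes, FASN, FDPS, IDI1, SCD and SQLE, and 10 without DMSO replicate 1. Fatty acid synthase, FASN, had 15 and 15 fragments in DMSO and 117 and 87 in abemaciclib. SCD, the stearoyl-CoA desaturase gene, had 9 and 13, then 34 and 33.

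Glycolysis and the TCA cycle gave 6 of 36 genes, among them GAPDH, LDHA, FH and CS. GAPDH had 20 and 21 fragments in DMSO and 169 and 168 in abemaciclib. The p53 and apoptosis list gave 7 of 40, led by PMAIP1, the BH3-only gene for NOXA, at ranks of 146 and 65 in DMSO and 30 and 55 in abemaciclib. Chaperones gave 12 of 80, including the chaperonin subunits CCT5 and CCT6A and the constitutive HSP70 gene HSPA8. EIF4EBP1, which encodes the cap-binding inhibitor 4E-BP1, was 1 of 5 translation factor genes among 64. That share (7.81%) is near the 6.5% of all coding genes and is no result about the list. EIF4EBP1 ranked 148 and 269, then 23 and 25. Without DMSO replicate 1, glycolysis and the TCA cycle would give 12 genes, p53 and apoptosis 12 and translation factors 11.

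Other lists were near or under the share of all coding genes. Vesicle traffic gave 13 of 160 (8.13%), RNA polymerase II, general factors and Mediator 8 of 99 (8.08%), growth factor and PI3K/mTOR signalling 3 of 46 (6.52%), cytosolic ribosomal proteins 4 of 79 (5.06%), numbered zinc finger genes 24 of 508 (4.72%) and oxidative phosphorylation 3 of 82 (3.66%). Shares this near the background are no result about the lists. Without DMSO replicate 1 the counts would be 24 for vesicle traffic, 13 for RNA polymerase II, 8 for growth factor signalling, 52 for zinc finger genes and 8 for oxidative phosphorylation, and growth factor signalling would give 5 without DMSO replicate 2. Of the growth factor genes, 95.7% nevertheless had a promoter region in both abemaciclib libraries. The oestrogen response list gave 2 of 53 (3.77%, 1.04% to 12.8%), MYBL1 and KLF10. The list would give 5 without DMSO replicate 1 and 4 without DMSO replicate 2. MYBL1 is also a cell cycle regulator of the MYB family. Luminal identity factors gave 0 of 26, which allows a share of up to 12.9%, and 2 without DMSO replicate 1, while 57.7% of them had a promoter region in both abemaciclib libraries.

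Sequence had no part in the choice of the regions. In 200-bp windows centred on the summit of abemaciclib replicate 1, NF-Y matches were found in 29.7% of 1041 shared promoter regions (27.0% to 32.5%), against 18.0% of 7825 gained promoter regions and 25.1% of windows on all coding starts. The ratio to gained regions was 1.65 (Fisher's exact test, two-sided, adjusted p = 1.03e-16). E2F matches were found in 24.3% (21.8% to 27.0%) against 17.2% and 12.3%, a ratio of 1.41 (exact test, adjusted p = 2.68e-07). CHR matches did not differ detectably, at 5.00% against 4.56% (exact test, adjusted p = 0.926). Adjustment covered 14 tests. The other 10 patterns were GCGCATGC for NRF1, CCGGAAG for ETS, GGGCGG for SP, AAGATGG for YY1, TGACGTCA for CRE, CACGTG for the E-box, TCTCGCGA for ZBTB33, TGANTCA for AP-1, TGTTTAC for forkhead and AGATAA for GATA factors, on both strands. None of them passed, and the one with the lowest adjusted p was SP (64.0% against 61.2%, exact test, adjusted p = 0.315). The SP pattern differed in the 400-bp windows, at 90.3% against 83.9% (exact test, adjusted p = 5.76e-08).

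**Figure D4:**
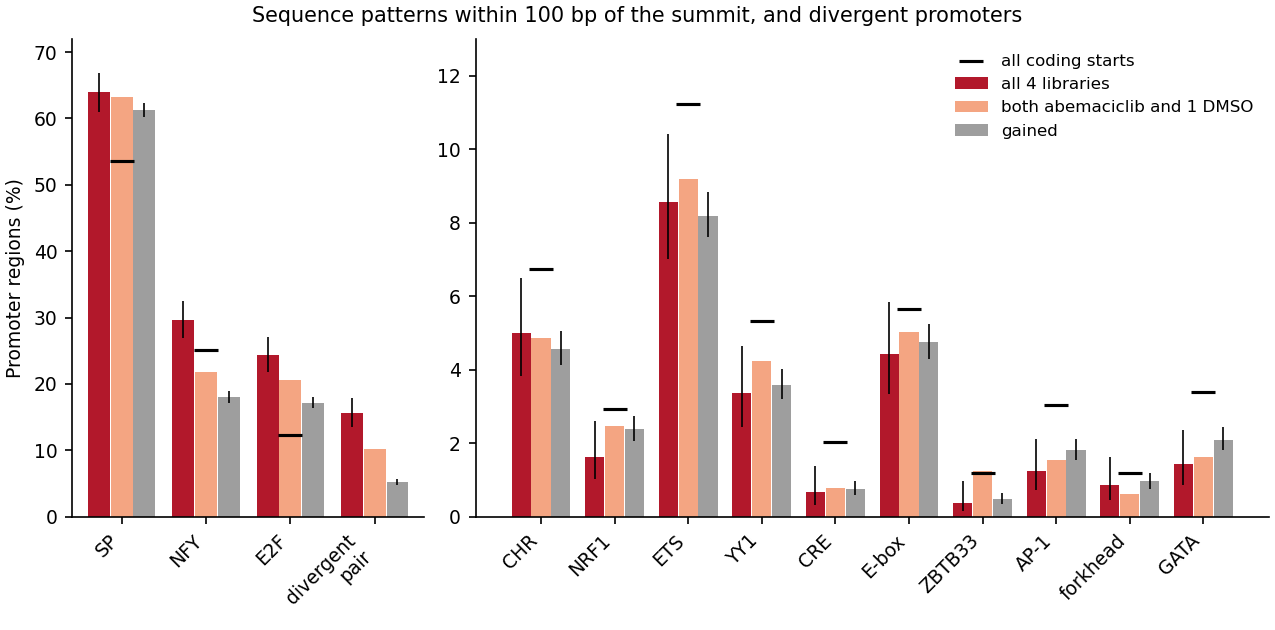
Share of promoter regions (y axis, %) with each sequence pattern within 100 bp of the abemaciclib replicate 1 summit, and with a divergent pair of coding starts, for regions bound in all 4 libraries, in both abemaciclib and 1 DMSO library, and gained regions; thin lines are Wilson 95% intervals and short bars give all coding starts. NF-Y, E2F and divergent pairs are higher in the shared than in the gained regions, while the other patterns differ little.

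Regions strongly bound with abemaciclib tend to be shared, so shared and gained regions were also compared among strong peaks only. Strength was not matched among these. In the abemaciclib replicate 1 list, shared peaks made up 84.8% of the first 5% and 5.87% between 15% and 20%. The comparison therefore cannot separate sequence from strength. Within the first 20% of the abemaciclib replicate 1 list, the 200-bp E2F difference no longer passed the threshold (ratio 1.22, exact test, adjusted p = 0.126), and the NF-Y difference just passed it (1.24, adjusted p = 0.0489). In 400-bp windows both held. E2F matches were then present in 54.3% of shared and 33.1% of gained promoter regions, and within the first 20% of the list in 54.4% against 40.5% (exact test, adjusted p = 4.35e-08). NF-Y matches were present in 49.8% against 32.0%, and within the first 20% the adjusted p was 1.53e-04 (exact test). The 400-bp SP difference did not pass within the first 20% (90.3% against 88.8%, exact test, adjusted p = 1). With the same number of peaks taken from each list, which left 705 shared and 177 gained promoter regions, neither 200-bp difference passed. The NF-Y ratio was then 1.52 (exact test, adjusted p = 0.0913) and the E2F ratio 1.10 (adjusted p = 0.931). At 400 bp, 77.0% of shared regions held E2F, NF-Y or both, against 54.9% of gained regions, and 27.0% held both, against 10.1%.

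E2F matches were also present where no gene of the cell cycle lists was. In 400-bp windows they were found in 52.2% of the 919 shared promoter regions without such a gene (49.0% to 55.4%). Of the 122 with one, 69.7% held a match (61.0% to 77.1%). The share was 33.1% for gained promoter regions and 21.8% for windows on all coding starts. The CHR pattern was found in 8.60% of regions without such a gene and 21.3% with one, beside 9.62% of gained promoter regions and 13.9% of all coding starts. NF-Y matches were most frequent at the best ranked regions. In 4 groups of the shared promoter regions of like size, from the best to the worst mean list position, 41.4%, 26.9%, 25.4% and 25% held an NF-Y match within 100 bp of the summit, and E2F shares were 26.4%, 25.4%, 21.9% and 23.5%. In 400-bp windows the best ranked group had the largest share of both patterns, with NF-Y at 62.1%, 49.6%, 46.9% and 40.4% and E2F at 62.1%, 56.5%, 46.5% and 51.9%. No E2F, CHR or NF-Y match was found within 200 bp of the summit in 21.2% of shared promoter regions.

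E2F matches were less frequent at the summits than beside them. Counted in 50-bp bins, 12.6% and 12.97% of shared promoter regions had a match centred 125 bp to the left of the abemaciclib summits of replicates 1 and 2, and 13.4% and 11.0% had one 125 bp to the right. In the bins centred 25 bp to either side the shares were 6.05% and 5.19% on the left, and 4.61% and 5.28% on the right. The DMSO summits showed a shallower dip, with 11.2% and 11.3% at 125 bp to the left and 8.17% and 7.97% at 25 bp. Even there the shares exceeded the 1.83% to 3.36% found 475 bp away. The dip was not particular to E2F. SP matches fell from 32.7% and 32.1% of regions at 125 bp to the left of the abemaciclib summits to 22.9% and 21.9% at 25 bp, and ETS matches, which were rare, were 3.36% and 2.59%, then 1.63% and 1.83%. NF-Y matches had no such dip, and in DMSO their share was 14.8% and 13.9% in the bin 25 bp to the left. Accordingly, fewer E2F matches were counted within 100 bp of abemaciclib summits (24.3% and 24.5% of regions) than of DMSO summits (30.9% and 30.1%). The median distance from the summit to the closest E2F match within 400 bp was 108.5 and 110.5 bp in DMSO and 123.5 and 126.5 bp in abemaciclib. A match is a description of the letters, and no binding site was measured.

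**Figure D5:**
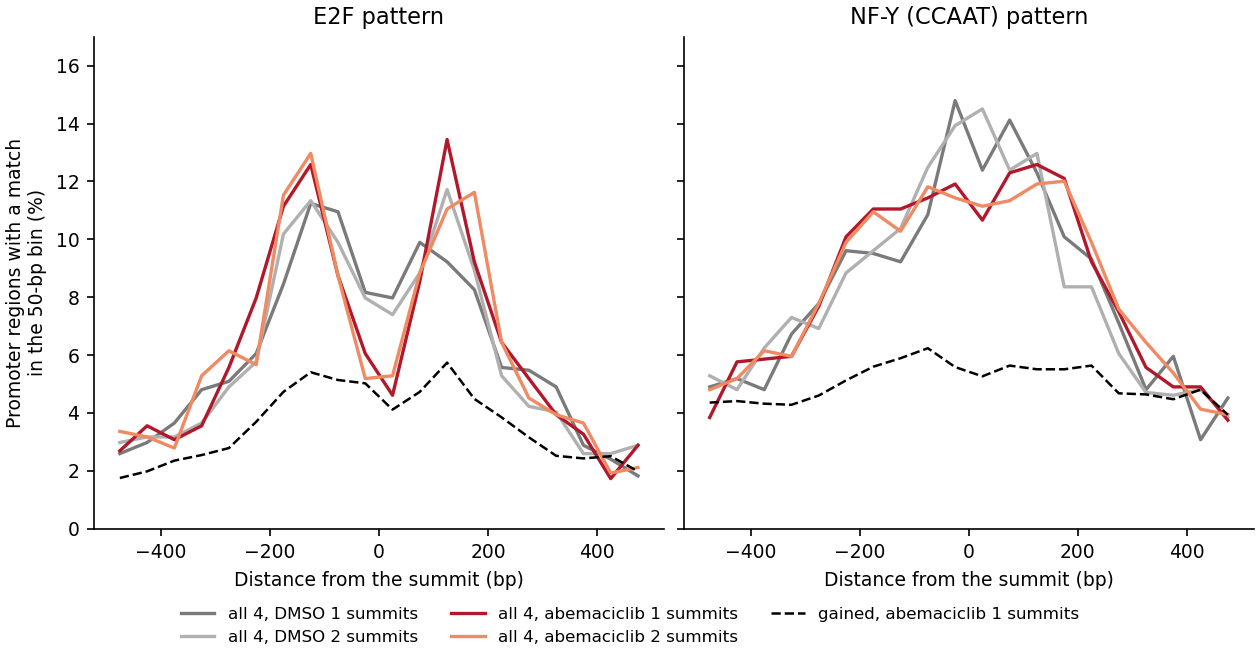
Share of promoter regions with a match (y axis, %) in 50-bp bins by distance from the summit (x axis, bp), for the E2F pattern (left) and the NF-Y pattern (right); solid lines are the shared regions on the summits of each library, dashed lines the gained regions on abemaciclib replicate 1 summits. E2F matches peak near 125 bp on either side with a dip at the summit, and NF-Y matches do not dip in DMSO.

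Regions outside promoters were few but some ranked high. The best of the 26 lay in an intron 11.7 kb from the start of GRIN1 (chr9:137149943-137151542). It ranked 17 and 40 in DMSO and 33 and 20 in abemaciclib, with 41 and 38 summit fragments in DMSO and 220 and 201 in abemaciclib. Next were an intronic region near CCM2L, with ranks of 164 and 66, then 194 and 222, and an intergenic region 15.4 kb from KPNA2, which encodes an importin α, with ranks of 124 and 279, then 180 and 122. Regions near WNT7B, ZNF648, ANK1, TIMM17B, EEF2K, RYR1 and STARD13 completed the first 10. The CHR, E2F and NF-Y comparisons above leave these regions out.

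At the edge of the definition, membership turned on weak DMSO peaks. The weakest peaks of shared regions were in DMSO replicate 2, where several tied at a −log10 p of 4.78. CNOT2, CLN6, CEP97 and LINC03026 were among these, each with 8 summit fragments there. Just outside, the best ranked regions that lacked a peak in 1 library were at MBOAT7/TSEN34, MRPL24 and DMAC2, and all 3 lacked it in DMSO replicate 1. MBOAT7/TSEN34 ranked 224 in DMSO replicate 2 and 206 and 251 in abemaciclib. In all, 1337 regions had a peak in 3 of the 4 libraries, and each of them lacked a DMSO peak.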

How the data were processed

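Adapters were removed by the authors with BBDuk, and read pairs were mapped to hg38 with Bowtie2 2.3.4.1. Mitochondrial and blacklisted reads were dropped and duplicates were kept. MACS2 2.2.7.1 was run on every library alone, with a q-value of 0.05 and an IgG control. Each deposited list gives, per peak, a fold (ratio of summit pileup plus 1 to local background plus 1), the −log10 of a p-value and of a q-value, a summit offset and a whole-number score that is 10 times the −log10 q; the score was not analysed. Lists hold no counts over common regions, so no count model was run. DNA sequence came from GRCh38 and genes from GENCODE 44. Genome mean coverage was taken as the most frequent local background in each list, which assumes the peak caller's usual background. The number of fragments per library is unknown, since which IgG control served each library is not given in the sources used here.

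Groups and replicate numbers came from sample titles. The members and gene lists were chosen with earlier results of these data known. Named were the 10 best regions by mean list position, the 20 best without a cell cycle gene, the 10 best outside promoters, up to 4 genes per list, 5 regions each way by change of position, and 3 regions on either side of the definition. Further members of lists, and regions by rank among members or by coverage ratio, were named after their values were seen, and a few regions that these rules name are not reported here. Patterns and divergence were compared by Fisher's exact test (two-sided, Benjamini-Hochberg over 14 tests), and intervals are Wilson 95%. Python 3.11.15, pandas 2.3.3, scipy 1.17.1 and pysam 0.24.0 were used, and the scripts were tested on simulated data. Alternatives were stricter q-values, equal list sizes, other windows, promoter definitions and scalings, and each library left out.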

Additional observations from a re-analysis of the deposited data

How the results depend on the processing

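Of 102 alternative values of the main results, 82 stayed on the same side of the threshold or within the stated spread. A −log10 q of at least 5 in every list left 524 regions and 646 genes. Leaving out each library in turn gave 1067 to 2156 regions and 1295 to 2491 genes, with the highest values without DMSO replicate 1. Counting coding promoters only, 93.3% of regions were at promoters, and per fragment, if the IgG controls were of equal depth, the coverage ratio was 9.78. The E2F ratio fell below the threshold with equal list sizes (1.10), in 100-bp windows (1.10) and in the first 20% of abemaciclib replicate 1 (1.22). With equal list sizes the NF-Y ratio (1.52) and the divergent ratio (1.34) fell below it too; by construction that alternative keeps few gained regions. The CHR ratio, 1.09 and never past the threshold, turned below 1 at a −log10 q of at least 2 (0.997), with equal list sizes (0.771), in 100-bp windows (0.956), in the first 20% (0.879; 0.937 in 400-bp windows) and among the libraries left out (0.985 to 1.13); the cause was not tested. Of the other 10 patterns, 1 (SP) passed in 400-bp windows, and between 0 and 1 passed with a library left out. Ranking by fold in place of p shared 86 of the best 100 regions. Of 355 alternative values for gene lists and named values, 281 stayed within their spread. The first 20%, fixed-window, coverage and mean rank alternatives were chosen after seeing the data. No paired analysis was possible because the tests compare regions, and the comparison of treatments comes from no test; for libraries of the same replicate number, the median coverage ratio was 7.92 and 6.72.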

Other observations

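Of the 45 shared regions at promoters of non-coding genes alone, several of the best ranked were at pseudogenes of multicopy families. After ENSG00000289222, the region at ENSG00000286586 (chr12:121686853-121687433) ranked 36 and 144 in DMSO and 201 and 259 in abemaciclib. FAM86FP, a pseudogene of a lysine methyltransferase family, ranked 141 and 90, then 35 and 43. Its relative FAM86C2P ranked 189 and 454, then 150 and 190. SMG1P3, a pseudogene of the mRNA decay kinase gene SMG1, ranked 273 and 235, then 81 and 115, and GBAP1, a pseudogene of the glucocerebrosidase gene, ranked 239 and 130, then 212 and 329. MIRLET7A1HG, the host gene of a let-7 microRNA cluster, had 13 and 15 summit fragments in DMSO and 149 and 114 in abemaciclib, a ratio of 10.6. Reads from near-identical copies may be counted at any of them, which was not tested.

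The shared regions were spread unevenly over chromosomes. Chromosome 16 held 84, or 9.81 per 100 coding genes, chromosome 6 held 26 (2.47), chromosome 21 held 4 (1.82) and chromosome X held 8 (0.931). As a share of the regions with a peak in both abemaciclib libraries, shared regions made up 14.97% on chromosome 16, 5.02% on chromosome 6, 4.65% on chromosome 21 and 2.37% on chromosome X. Chromosome X thus had 337 regions in both abemaciclib libraries and few that were also found in both DMSO libraries. Copy number in these cells was not measured here, and no test of the difference between chromosomes was made.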
